A study of Mus musculus with 6 samples.

Results

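The genes described here are 10 components of lytic cell death, namely Zbp1, Ripk1, Ripk3, Mlkl, Casp1, Casp4, Casp8, Gsdmd, Gsdme and Nlrp3. They were taken by gene name from a deposited table of 78298 genes, and each name was found once. The table holds estimated read counts for RENCA, an established mouse renal adenocarcinoma cell line. Of the 6 samples, 3 were transduced with a lentivirus carrying mouse Aqp1 under the ubiquitin C promoter (oe-AQP1) and 3 with the same vector without the insert (oe-NC). Both groups carried the vector's puromycin resistance cassette, were left for 48 hours and were then kept in puromycin at 2 μg/mL for 14 days. All samples are labelled as 1 batch, and untransduced cells were not analysed here. The series calls the samples biological replicates but does not say that they were separate cultures or how many clones each held, so p-values measure the spread between these samples.

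Necroptosis and pyroptosis are forms of programmed cell death that break the plasma membrane and release the cell's contents. In necroptosis, the sensor ZBP1, or a death receptor acting through RIPK1, engages RIPK3. RIPK3 phosphorylates MLKL, and MLKL disrupts the membrane. Caspase-8 restrains this route by cleaving the RIPK kinases. In pyroptosis, inflammasome sensors such as NLRP3 activate caspase-1, or intracellular lipopolysaccharide activates the caspase encoded by mouse Casp4. These caspases cut gasdermin D, whose fragment forms membrane pores. Gasdermin E forms pores after cleavage by an apoptotic caspase. All of these proteins are switched on by binding, cleavage or phosphorylation, none of which RNA sequencing measures, so the values below are transcript levels only.

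The question was how the transcripts of this machinery differed between oe-AQP1 and oe-NC cells. Levels are in CPM, a gene's counts scaled by TMM-adjusted library size to a common total. The log2FC is the log2 of the change from oe-NC to oe-AQP1, and the FDR is limma-voom's p-value after Benjamini-Hochberg adjustment over 15522 genes with enough counts. A DEG is a gene that passes FDR 0.05 with a log2FC beyond 1 in either direction. Of the 10 members 9 were tested, and 7 of these rose in oe-AQP1 cells (FDR under 0.05), where 32.5% of all genes tested were called, 16.0% as higher and 16.6% as lower. Zbp1, Casp4 and Mlkl were DEGs, a class that held 5.23% of all genes (4.39% higher and 0.844% lower). Gsdmd, Casp1, Casp8 and Ripk1 rose by less, Ripk3 and Gsdme did not pass the test, and Nlrp3 had too few counts. No member was lower, whether by limma-voom at an FDR under 0.05 or an unadjusted p under 0.05 (0 members each), or by edgeR's quasi-likelihood test (0) or DESeq2 (0). For 8 of the 9 every oe-AQP1 sample was above every oe-NC sample in CPM, which held for 23.5% of all genes and, in either direction, for 47.3%. The median log2FC of the 9 was 0.87, and that of all genes tested was 0.00 (0.0023).

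Each sample held between 18385714.02 and 21920898.67 expected counts, so that 3 counts, the number below which a gene is treated as barely detected, equal 0.136 to 0.164 CPM. Aqp1 checked the labels, since it had 7713 to 8545 counts where it was overexpressed and 25 to 45 counts in controls. The sample oe-NC 1 stood apart from the other oe-NC samples, with a chi-square per gene of 9.47 and 11.1 against them, where pairs of other samples in a group gave 1.71 to 2.04. Without it the same test called 7 members higher, 0 lower and 3 as DEGs. The kidney markers Krt8, Krt18, Cdh16, Pax8 and Pax2 were detected at no fewer than 700 counts in any sample, while Epcam, an adhesion protein of many epithelia, was at 0 in all 6. Of 15 macrophage markers, 10 did not exceed 10 counts in any sample, and Adgre1, C1qa, C1qb, C1qc and Tyrobp were at 0 throughout. The other 5 had enough counts for the test and did not move together. Cd68 had 576 to 777 counts and was higher in every oe-AQP1 sample without passing the test (33.8 against 30.6 CPM, log2FC = 0.15, FDR = 0.0764). Csf1r (log2FC = -1.51, FDR = 1.31e-05) and Lyz2 (log2FC = -0.52, FDR = 0.000273) fell, and Cd14 and Spi1 had log2FC values of -0.16 (FDR = 0.147) and 0.04 (FDR = 0.898). The whole list summed to 63.9 to 66.8 CPM in oe-AQP1 and 72.4 to 76.7 CPM in oe-NC samples, and the part of other cell types in the members' values was not tested. Of 10 lymphocyte markers 8, and of 7 stromal and endothelial markers 6, did not exceed 3 counts in any sample. In a bulk sample, a change in the share of cells that express a gene and a change in RNA per cell cannot be told apart.

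Sequence before the start site can be shown for the members with a promoter entry in the RefSeq table of GRCm38.p6, which covers 8 of the 10 (Zbp1 and Gsdmd have no entry) in 11 windows from 250 bases before to 50 bases after a start. A stretch of Casp4 and one of Ripk1 are printed because they match a motif of NF-κB and one of interferon signaling, respectively, and capitals mark the bases matched to that motif alone. Coordinates in this paragraph are of GRCm38.p6 and differ from those of GRCm39 below. The Casp4 stretch covers chr9:5308739-5308848, forward strand, directly before a start, and the Ripk1 stretch covers chr13:34002824-34002883, forward strand, and ends 10 bases after a start.
Casp4: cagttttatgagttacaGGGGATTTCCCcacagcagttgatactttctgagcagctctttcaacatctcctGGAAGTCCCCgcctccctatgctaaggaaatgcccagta
Ripk1: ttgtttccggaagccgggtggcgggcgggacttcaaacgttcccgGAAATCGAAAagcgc
The capitals in Casp4 mark 2 separate places that match the NF-κB consensus, the first of them in overlapping frames on both strands. The capitals in Ripk1 mark GAAANNGAAA, the core of the interferon-stimulated response element. On both strands, the NF-κB consensus was found in Casp4 and Nlrp3 and in 9.55% of all genes of the table. The interferon-stimulated response element core was found in Ripk1 and in 3.99% of genes. For Mlkl, Casp1, Casp8, Ripk3 and Gsdme neither motif is in the window, which says nothing of sites elsewhere.

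**Figure D1:**
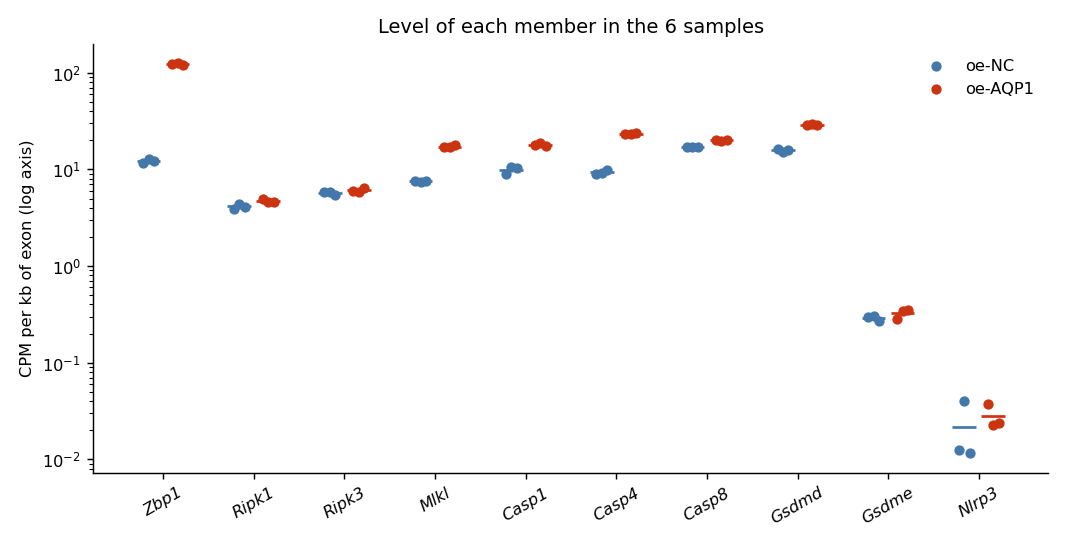
Level of the 10 genes in each sample, as CPM per kb of exon on a log axis. Points are samples, horizontal lines are group means (n = 3), blue is oe-NC and red is oe-AQP1. Zbp1 moved from a mean of 12.3 to 123, while Gsdme and Nlrp3 stayed below 1 in every sample.

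Levels were compared between genes per kb of exon, with exon lengths taken from all GENCODE M39 transcripts of a gene. The lengths ran from 2531 bases for Ripk3 to 13069 for Gsdme, with 10993 for Ripk1, and the order of genes depends on them. In plain CPM, Ripk1 (45.6 in oe-NC cells) was above Ripk3 (14.4), the reverse of their order per kb. In oe-NC cells the order of the mean levels ran from Casp8 (17.1 CPM per kb) through Gsdmd (15.7), Zbp1 (12.3), Casp1 (9.94), Casp4 (9.36), Mlkl (7.53), Ripk3 (5.70) and Ripk1 (4.15) down to Gsdme (0.292) and Nlrp3 (0.022). The samples of Casp1 and Casp4 overlapped, and all other neighbours in this order were apart. In oe-AQP1 cells Zbp1 led with 123 ± 1.64 CPM per kb (SD, n = 3), ahead of Gsdmd (29.2), Casp4 (23.4), Casp8 (20.0), Casp1 (18.1) and Mlkl (17.2). Ripk3 (6.14), Ripk1 (4.69), Gsdme (0.326) and Nlrp3 (0.028) kept the last places, and only the samples of Casp1 and Mlkl overlapped among neighbours. By this measure Zbp1 stood above 77.9% of the genes tested in oe-NC cells and above 98.3% in oe-AQP1 cells. For Ripk3 these values were 59.3% and 60.9%.

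ZBP1 binds left-handed Z-form nucleic acids and starts necroptosis through RIPK3. Zbp1 (ENSMUSG00000027514) is on the reverse strand of chromosome 2 (173033815 to 173060724, GRCm39, as for all gene positions here). It measured 528, 536 and 523 CPM in the oe-AQP1 samples and 50.5, 55.2 and 53.1 CPM in the oe-NC samples. Every oe-AQP1 sample was far above every oe-NC sample, and the spread within either group was small. The log2FC was 3.32 (standard error 0.04, FDR = 6.77e-12), with a 95% interval from 3.23 to 3.42. Zbp1 ranked 95 by log2FC and 9 by p-value among the 15522 genes. Its annotated neighbours on either side were at or near background: Pmepa1 had 5 to 11 counts in a sample, and the lncRNA Gm75647 was at 0 in all 6. The next coding gene on the far side of the latter, Pck1, had a log2FC of -0.09 (FDR = 0.651).

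Zbp1 alone accounted for much of the difference in summed reads. The 10 members together had 341 ± 6.96 CPM (SD, n = 3) in oe-NC cells and 1029 ± 7.39 CPM in oe-AQP1 cells. Zbp1 supplied 15.5% ± 0.422 (SD, n = 3) of this sum in oe-NC cells and 51.4% ± 0.360 in oe-AQP1 cells. Without Zbp1, the other members summed to 288 ± 4.88 CPM and 500.1 ± 2.58 CPM. ADAR, an RNA-editing enzyme with a Z-nucleic acid-binding domain of its own, limits the ligands of ZBP1. Adar rose from 193 ± 14.2 CPM to 394 ± 3.25 CPM (log2FC = 1.03, standard error 0.05, FDR = 1.12e-07), less than Zbp1 did. As a ratio of counts within a sample, not corrected for gene length, Zbp1 to Adar went from 0.275 in oe-NC to 1.34 in oe-AQP1 cells. The log2 ratios were 0.43, 0.43 and 0.42 in oe-AQP1 samples and -2.05, -1.76 and -1.78 in oe-NC samples. The groups did not overlap (exact two-sided permutation p = 0.1, which is the lowest value that 3 against 3 samples can reach, adjusted p = 0.15 over 6 ratios).

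The genes of the RIPK kinases changed little. RIPK3 is the kinase that phosphorylates MLKL. Ripk3 (ENSMUSG00000022221, chromosome 14, 56022452 to 56026324, reverse strand) measured 15.3, 14.9 and 16.4 CPM in oe-AQP1 samples and 14.8, 14.8 and 13.7 CPM in oe-NC samples. The groups were apart by a narrow margin. Groups were apart by any margin for 47.3% of all genes tested, and for 23.5% with oe-AQP1 higher. The log2FC of 0.11 did not pass the test (standard error 0.07, FDR = 0.302), and its 95% interval ran from -0.06 to 0.27. RIPK1 is the adaptor kinase shared by death receptor signaling, apoptosis and necroptosis. Ripk1 (ENSMUSG00000021408, chromosome 13, 34186141 to 34221130, forward strand) measured 53.9, 50.025 and 50.6 CPM in oe-AQP1 and 43.3, 48.4 and 45.3 CPM in oe-NC samples. The groups were close but did not overlap. The log2FC of Ripk1 was 0.18 (standard error 0.06, FDR = 0.0377), a 1.13-fold difference close to the threshold. The call was lost in 4 of the 6 fits that left out 1 sample: without oe-AQP1 1 (FDR = 0.15), oe-AQP1 2 (FDR = 0.0706), oe-AQP1 3 (FDR = 0.0851) and oe-NC 3 (FDR = 0.0905). It was also lost with DESeq2 (FDR = 0.0803). The counts of Ripk1 were fractions in all 6 samples. Its exons share 511 bases with the pseudogene Gm17084 and, on the opposite strand, 241 bases with Serpinb6a. The log2 ratio of Ripk3 to Ripk1 differed by -0.07 between the groups, which overlapped (exact permutation p = 0.4, adjusted p = 0.48).

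The transcript of Mlkl, which encodes the executioner of necroptosis, did rise. Mlkl (ENSMUSG00000012519, chromosome 8, 112036296 to 112065168, reverse strand) measured 98.4, 98.5 and 103 CPM in the oe-AQP1 samples and 43.9, 42.7 and 44.2 CPM in the oe-NC samples. No sample of either group came near the other group. The log2FC was 1.19 (standard error 0.04, FDR = 1.60e-08), a 2.29-fold difference. The counts of Mlkl were fractions in all 6 samples. Its exons share 672 bases with the lncRNA Gm63800 on the opposite strand, and the counting is not stated to use strand, so reads from that stretch may belong to either gene. Gm63800 had 76.88, 67.65 and 93.28 counts in oe-AQP1 samples and 25.63, 20.69 and 26.48 counts in oe-NC samples, far fewer than the 1946 to 2167 and 781 to 943 counts of Mlkl. The neighbouring gene Rfwd3 had a log2FC of 0.28 (FDR = 9.02e-04).

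Caspase-8 is the initiator caspase of death receptors and the brake on necroptosis. Casp8 (ENSMUSG00000026029, chromosome 1, 58834375 to 58886665, forward strand) measured 61.7, 61.2 and 61.8 CPM in oe-AQP1 and 52.5, 52.6 and 52.8 CPM in oe-NC samples. The spread within groups was the smallest of all members in relation to its level, and the log2FC of 0.23 passed the test (standard error 0.04, FDR = 0.00251). The executioner was set against its brake as a ratio. Mlkl had 0.829 counts per count of Casp8 in oe-NC cells and 1.62 in oe-AQP1 cells. The log2 ratio differed by 0.97 without overlap between groups (exact permutation p = 0.1, the smallest possible, adjusted p = 0.15). Cflar, which lies beside Casp8 on chromosome 1 and encodes the caspase-8 partner cFLIP, rose by nearly the same amount (log2FC = 0.27, standard error 0.05, FDR = 0.00195). The log2 ratio of Casp8 to Cflar was -0.55 ± 0.03 (SD, n = 3) in oe-AQP1 and -0.50 ± 0.08 in oe-NC samples, and the groups overlapped (exact permutation p = 0.5, adjusted p = 0.5). Trak2, the coding gene on the other side of Casp8, fell (log2FC = -0.28, FDR = 2.25e-04).

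**Figure D2:**
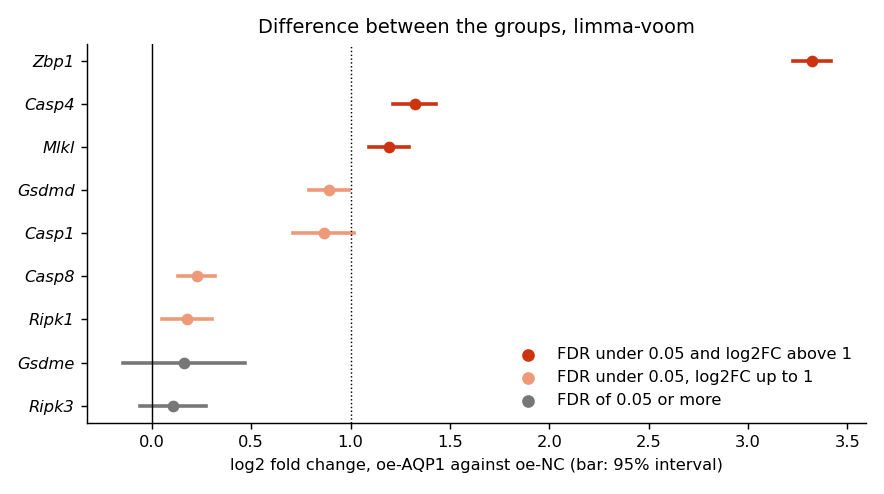
Log2FC (oe-AQP1 over oe-NC) of the 9 members tested, with bars for the 95% interval of limma-voom. Dark red marks DEGs, light red marks an FDR under 0.05 with a log2FC up to 1 (dotted line), and grey marks the rest. Zbp1 stands at 3.32, Casp4 and Mlkl just above 1, and the intervals of Ripk3 and Gsdme include 0.

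**Figure D3:**
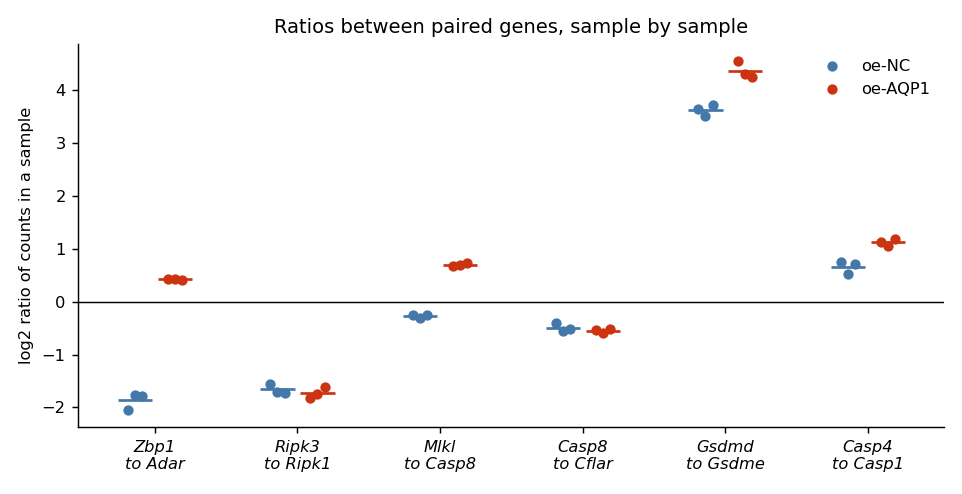
Log2 ratio of the counts of paired genes in each sample (points), with group means (lines, n = 3). The groups are apart for Zbp1 to Adar, Mlkl to Casp8, Gsdmd to Gsdme and Casp4 to Casp1, and overlap for Ripk3 to Ripk1 and Casp8 to Cflar.

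On the pyroptosis side, the transcripts of the inflammatory caspases rose. The mouse Casp4 protein, also known as caspase-11, binds bacterial lipopolysaccharide in the cytosol. Casp4 (ENSMUSG00000033538, chromosome 9, 5308828 to 5336783, forward strand) measured 122, 123 and 125 CPM in oe-AQP1 samples and 47.1, 48.0 and 52.3 CPM in oe-NC samples. No values overlapped. The change was 1.32 on the log2 scale (standard error 0.05, FDR = 1.44e-08), a 2.50-fold difference and the largest after Zbp1 among the members. Caspase-1 matures interleukin-1β and interleukin-18 and cleaves gasdermin D. Casp1 (ENSMUSG00000025888, chromosome 9, 5298508 to 5307290, forward strand) measured 55.9, 59.6 and 54.5 CPM in oe-AQP1 and 28.1, 33.3 and 32.1 CPM in oe-NC samples. The groups lay well apart, and the log2FC was 0.87 (standard error 0.07, FDR = 7.16e-06). The log2FC of Casp1 without oe-NC 1 was 0.79.

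Casp1, Casp4 and Casp12 follow each other on chromosome 9 in the same orientation, with 1537 bases between Casp1 and Casp4 and 8631 between Casp4 and Casp12. Casp12 encodes a further member of the inflammatory caspase family. It measured 83.0, 84.7 and 87.6 CPM in oe-AQP1 and 51.1, 55.5 and 52.3 CPM in oe-NC samples. The difference was 0.69 on the log2 scale (standard error 0.05, FDR = 2.71e-06). All 3 genes of the cluster were therefore higher, with Casp4 changing most. Gria4, the nearest coding gene on the Casp1 side at a distance of 502181 bases, had at most 2 counts in a sample. The log2 ratio of Casp4 to Casp1 was 1.12, 1.04 and 1.19 in oe-AQP1 samples and 0.74, 0.53 and 0.70 in oe-NC samples. These did not overlap (exact permutation p = 0.1, the smallest possible, adjusted p = 0.15). Casp1 and Casp4 are related in sequence, and their counts were whole numbers in every sample.

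**Figure D4:**
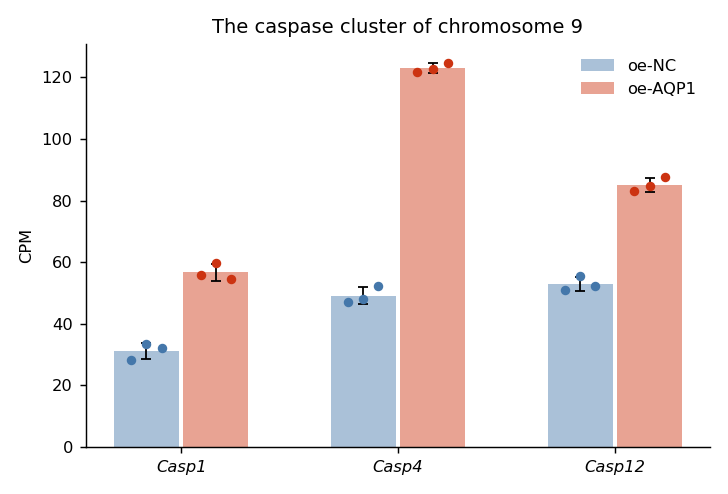
CPM of the caspase genes that lie side by side on chromosome 9. Bars are means, error bars are SD (n = 3), points are samples, blue is oe-NC and red is oe-AQP1. Casp4 rose from 49.1 to 123, Casp1 from 31.2 to 56.6 and Casp12 from 53.0 to 85.1, and heights compare groups within a gene, not genes.

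The gasdermin genes differed from each other. Gsdmd (ENSMUSG00000022575, chromosome 15, 75733974 to 75739257, forward strand) encodes the pore former cut by caspase-1 and by the Casp4 product. It measured 86.5, 89.5 and 86.7 CPM in oe-AQP1 samples and 48.5, 46.0 and 47.2 CPM in oe-NC samples. The log2FC was 0.89 (standard error 0.04, FDR = 1.82e-07), a 1.85-fold difference whose 95% interval ended at 0.99, under the fold threshold of a DEG. Gsdme (ENSMUSG00000029821, chromosome 6, 50165868 to 50240842, reverse strand) was far lower, at 3.69, 4.50 and 4.57 CPM in oe-AQP1 and 3.87, 3.99 and 3.57 CPM in oe-NC samples. The groups overlapped, and the log2FC of 0.16 did not pass the test (standard error 0.14, FDR = 0.41). Its 95% interval from -0.15 to 0.47 leaves room for a 1.38-fold increase. The exons of Gsdme share 3141 bases with Pals2 on the opposite strand, which had 486 to 603 counts in a sample against 73 to 99 for Gsdme. The counts of both genes were whole numbers in every sample, so no split reads are visible. How reads from the shared stretch were assigned is not stated, so the level of Gsdme is uncertain. Gsdmd had 12.3 counts per count of Gsdme in oe-NC and 20.6 in oe-AQP1 cells, without overlap (log2 difference 0.74, exact permutation p = 0.1, adjusted p = 0.15).

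NLRP3 is the sensor of the best known inflammasome. Nlrp3 (ENSMUSG00000032691, chromosome 11, 59432394 to 59457782, forward strand) had 3, 2 and 2 counts in oe-AQP1 samples and 1, 3 and 1 counts in oe-NC samples. Both groups were at or under 3 counts, so no fold is given and a difference was not detectable at this depth. Of 33 further inflammasome and pyroptosis genes in the table, 14 did not exceed 10 counts in any sample. Pycard, the adaptor that links sensors to caspase-1, measured 5.82, 4.82 and 4.52 CPM in oe-AQP1 and 3.31, 2.79 and 4.13 CPM in oe-NC samples. Its log2FC of 0.56 passed the test (standard error 0.17, FDR = 0.0296) but not without oe-AQP1 1 (FDR = 0.104), oe-AQP1 2 (FDR = 0.0641) or oe-NC 2 (FDR = 0.105). The DNA sensor Aim2 had 3, 8 and 11 counts in oe-AQP1 and 4, 1 and 4 in oe-NC samples and was not tested. Transcripts for the cargo of pyroptosis were scarce, since Il1b did not exceed 8 counts in any sample. Il18 had 20, 26 and 11 counts in oe-AQP1 and 6, 8 and 12 in oe-NC samples (log2FC = 0.98, FDR = 0.084).

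**Figure D5:**
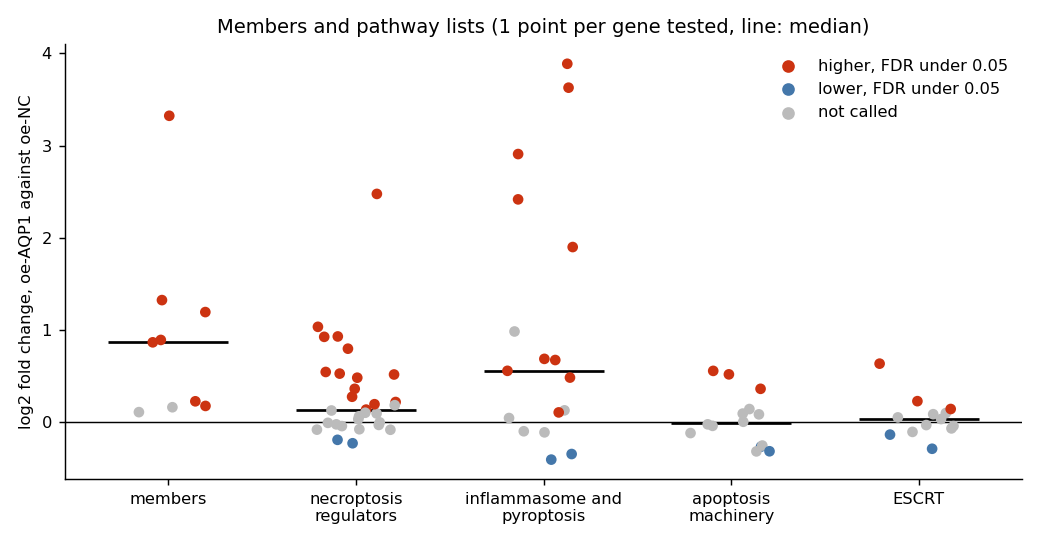
Log2 fold change of every tested gene in the members and in the pathway lists (points), with the median of each list as a line. Red genes were higher and blue genes lower at an FDR under 0.05. The medians are 0.87 for the members, 0.13 for necroptosis regulators, 0.56 for inflammasome and pyroptosis genes, -0.01 for the apoptosis machinery and 0.03 for ESCRT genes.

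Around the members, a list of 30 regulators of necroptosis was tested in full. Overexpression went with 14 higher and 2 lower genes at an FDR under 0.05, where 16.0% of all genes tested were higher and 16.6% lower. Across the alternatives 12 to 16 of the list were higher. The median log2FC was 0.13. The largest increase was that of Tlr3, an endosomal sensor of double-stranded RNA whose adaptor can engage RIPK3 (log2FC = 2.48, standard error 0.07, FDR = 1.35e-09). Tlr3 measured 108, 102 and 111 CPM in oe-AQP1 and 17.6, 19.4 and 20.7 CPM in oe-NC samples. Adar came next, followed by Tnfaip3, the ubiquitin-editing enzyme A20 that dampens NF-κB and necroptosis (log2FC = 0.93, FDR = 1.61e-06). The lower genes were Stub1, a ubiquitin ligase for RIPK3 (log2FC = -0.23, FDR = 0.00433), and Map3k7, the kinase TAK1 of TNF receptor signaling (log2FC = -0.19, FDR = 0.0122). Map3k7 lost its call without oe-AQP1 1 (FDR = 0.0614) and without oe-AQP1 3 (FDR = 0.0535). The smallest increase called was that of the kinase gene Ikbkb (log2FC = 0.14, FDR = 0.0369), which lost its call in 8 of 16 alternatives. The scaffold Fadd, which recruits caspase-8, had a log2FC of 0.00 (95% interval from -0.14 to 0.13, FDR = 0.973); it was named after its value was seen.

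Of 34 inflammasome and pyroptosis genes outside the members, 33 were found by name and 17 had enough counts for the test. Of these 10 were higher and 2 lower, where 16.0% of all genes tested were higher and 16.6% lower. Across the alternatives 8 to 11 of the list were higher. The median log2FC was 0.56. The largest increases were those of genes for guanylate-binding proteins, which coat cytosolic bacteria and help the Casp4 product reach lipopolysaccharide. Gbp2 measured 219, 217 and 222 CPM in oe-AQP1 and 15.8, 14.1 and 14.5 CPM in oe-NC samples (log2FC = 3.89, standard error 0.06, FDR = 1.96e-11). Gbp5 (log2FC = 3.63, FDR = 2.14e-09) and Gbp3 (log2FC = 2.91, FDR = 5.22e-12) followed. The counts of Gbp2 and Gbp5 were fractions in 4 and 6 samples, and these genes belong to a family of near copies. Nek7, a kinase that binds NLRP3, fell (log2FC = -0.41, standard error 0.05, FDR = 9.98e-05), as did Dpp9, a peptidase that restrains the NLRP1 inflammasome (log2FC = -0.35, FDR = 0.00185). Txnip, a redox protein reported to bind NLRP3, was the smallest increase called (log2FC = 0.10, FDR = 0.0392) and lost its call in 8 of 16 alternatives.

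Genes of apoptosis and of membrane repair had median changes nearer to 0 than the members. Of 14 genes of the apoptosis machinery, 3 were higher and 2 lower, with a median log2FC of -0.01, a share called that was near the 32.5% of all genes tested. Those higher included Bid, which links caspase-8 to mitochondria (log2FC = 0.56, FDR = 2.05e-05), and Casp2 (log2FC = 0.36, FDR = 0.00123), and Aifm1, a mitochondrial flavoprotein, was among those lower (log2FC = -0.32, FDR = 2.1e-04). Without oe-NC 1, 4 genes of this list were lower. The ESCRT-III machinery sheds membrane damaged by MLKL or gasdermin D. Of its 13 genes 3 were higher and 2 lower, again near the share of all genes, with a median log2FC of 0.03. Chmp4b, which encodes its main filament subunit, changed most (log2FC = 0.63, standard error 0.04, FDR = 5.19e-07). It measured 362, 358 and 346 CPM in oe-AQP1 and 224, 230 and 234 CPM in oe-NC samples. Pdcd6ip, which encodes the ESCRT adaptor ALIX, was lower (log2FC = -0.29, FDR = 5.43e-04). Chmp1b (log2FC = 0.23), Vps4b (log2FC = 0.14) and Chmp1a (log2FC = -0.14) lost their calls in 6, 7 and 5 of 16 alternatives. Without oe-AQP1 2, oe-AQP1 3 or oe-NC 2, only 1 ESCRT gene was higher. The number lower was 1 without any single oe-AQP1 sample or oe-NC 2, and 4 without oe-NC 1.

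The members that rose did so beside a rise of interferon-stimulated genes taken as a reference. Of 19 such genes, among them Ifit1, Isg15 and Mx1, all 19 were higher, where 16.0% of all genes tested were. Their median log2FC was 1.96, and they were chosen with earlier results of these data known. Their summed level was 13414 to 13454 CPM in oe-AQP1 and 2918 to 3045 CPM in oe-NC samples. The part of the interferon response in the members' values was not tested. Over the 6 samples, the genes with the profile nearest to that of Zbp1 were Gvin-ps7, Phf11d and Or2v1, at a Euclidean distance of 0.08, 0.09 and 0.12 between mean-centred log2 CPM values, out of 15522 genes. Phf11d resembled it in level too, at 495 CPM in oe-AQP1 and 49.2 CPM in oe-NC cells, whereas Or2v1 had 7.24 and 0.677 CPM. The genes nearest to Mlkl were Rnf114 (distance 0.07), Slfn3 (0.09) and Oas2 (0.11), with log2FC values of 1.23, 1.14 and 1.11. With 3 samples in each group, these distances mostly describe a shared size of the group difference.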

How the data were processed

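RNA was measured in 6 RENCA samples, 3 oe-AQP1 and 3 oe-NC, grouped by their titles. The authors deposited expected counts per gene, not scaled between samples, from paired-end TruSeq libraries. The study gives GRCm39, while the submitters' processing notes name GRCm38, mm10, fastp, HISAT2, featureCounts and Subread without roles. Of 78298 gene identifiers 78168 were found in GENCODE M39, which gave positions and exon lengths. Group-mean columns were not used.

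Expected counts were rounded, filtered with edgeR's filterByExpr (15522 genes kept), TMM-scaled and compared by limma-voom as in the study's methods (limma 3.58.1, edgeR 4.0.16, R 4.3.3). Scripts were tested on simulated data. Within-sample ratios used counts plus 0.5 and exact permutation tests. The alternatives comprised DESeq2 1.42.0, edgeR's quasi-likelihood test, quality weights, 3 scalings, 2 filters, unrounded counts, a block for sample number and leaving out each sample. Depth was 18385714.02 to 21920898.67 counts per sample.

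Named genes were the members, their neighbours, the 3 highest and 3 lowest called genes of each pathway list, a few set partners (Adar, Cflar, Casp12, Pycard, Aim2), and the 3 profiles nearest to Zbp1 and Mlkl. Il1b, Il18 and Fadd were added after their values were seen, and some genes of the rule are not reported here. Members, lists and the naming rule were chosen with earlier results of these data known. No result met the conditions for a closer look, which need more than 3 samples in a group or a second contrast.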

Additional observations from a re-analysis of the deposited data

How the results depend on the processing

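Across 16 alternatives, the log2FC of Zbp1 stayed between 3.29 and 3.35, of Casp4 between 1.29 and 1.37, of Mlkl between 1.17 and 1.21, of Gsdmd between 0.87 and 0.91, of Casp1 between 0.79 and 0.91 and of Casp8 between 0.21 and 0.24, each with an FDR under 0.05 throughout. Ripk3 and Gsdme passed in none of them. The members higher numbered 6 or 7, those lower 0 and the DEGs 3. Ripk1 was no longer called with DESeq2 (log2FC = 0.17), without a low-count filter (0.16) and with a block for the sample number (0.17), and its log2FC was 0.14 to 0.21 with each sample left out. Nlrp3, tested only without a filter, had a log2FC of 0.41 (FDR = 0.734).

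Counts over the short lists were less stable. The calls over all genes moved as well, from 5050 of 15522 genes with all samples. Without oe-AQP1 2 they were 3601 of 15863 genes, and without oe-NC 1 they were 6456 of 16085. The shares of all genes given above are those of the fit with all samples. With quality weights 5 apoptosis genes were higher and 4 lower. With DESeq2 1 ESCRT gene was higher and 1 lower, and without a filter 1 was higher. With each sample left out, 1 to 3 necroptosis regulators and 2 to 4 apoptosis genes were lower, and 1 to 4 ESCRT genes were higher and 1 to 4 lower. The cause was not tested. The small differences in 2 log2 ratios depended on single samples. Casp8 to Cflar was -0.0045 without oe-NC 1 and -0.03 without oe-AQP1 2, and Ripk3 to Ripk1 was -0.01 without oe-NC 1 and -0.02 without oe-AQP1 1. The largest sizes were -0.08 for Casp8 to Cflar without oe-NC 2 and -0.12 for Ripk3 to Ripk1 without oe-AQP1 3.

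Samples with the same number did not deviate together (r = 0.01, 0.00 and -0.07 across genes, and 0 of 6 samples correlated best with its own number). No pairing was visible, but so few correlations cannot tell whether such samples were handled together. The block moved the calls over all genes from 5050 to 4825 and changed no member's call but that of Ripk1 (FDR = 0.06). Depth limits Nlrp3, Aim2 and Il1b, where single reads decide the value.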
